A study of Mus musculus with 8 samples.

Results

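The transcripts of the mouse mitochondrial genome were compared between B cells that had lost Prmt5 and B cells that had kept it. They were every gene of the deposited table whose symbol starts with mt-, which gave 37 of 39017 genes: 13 mRNA genes, 22 tRNA genes and 2 rRNA genes. Membership was set by name only and by no measured value, but this group of genes was chosen with earlier results of these data known. Prmt5 is an arginine methyltransferase that makes symmetric dimethylarginine on histones, splicing proteins and other targets.

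Mitochondrial DNA is a small circle that is read from both strands as long transcripts covering many genes. The tRNAs lie between the other genes, and cutting them out releases the individual mRNAs and rRNAs. The mRNAs encode core subunits of the respiratory chain complexes I, III and IV and of ATP synthase (complex V), while all other subunits, and all proteins that copy, transcribe and translate the mitochondrial genome, come from nuclear genes. Activated B cells raise mitochondrial mass and respiration as they begin to divide.

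RNA-seq was performed on induced germinal center B cells (iGBs), which are spleen B cells grown on 40LB fibroblasts that supply CD40L and BAFF. The cultures received 1 ng/mL of IL-4 and were harvested at day 4, when the B cells were parted from the fibroblasts by elutriation. The Prmt5-null group held 4 libraries from mice with floxed Prmt5 (Prmt5 F/F) and Cγ1-cre, labelled PRMT5-10617, PRMT5-10618, PRMT5-10770 and PRMT5-10771. The control group held 4 libraries from mice with Cγ1-cre and no floxed allele, labelled CTRL-10370, CTRL-10596, CTRL-10597 and CTRL-10650. All mice were of the C57BL6/J strain, and both groups carried the Cre. Cγ1-cre acts once a B cell transcribes the Cγ1 gene after activation, so Prmt5 was present in the cells before culture. The labels call the libraries independent biological samples. They came from 2 experiments, and which library belongs to which is not given in the sources used here.

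Between 36731721 and 50366174 reads per library lay on genes. Prmt5 itself checked the labels. Its normalized count was 11774 ± 908 (SD, n = 4) in the control group and 1538 ± 436 (SD, n = 4) in the Prmt5-null group, and the log2 fold change was -2.98 (SE 0.17). B cell markers were detected for 10 of 10 genes, with a summed normalized count from 337926 to 402087 in Prmt5-null and from 378181 to 428635 in control libraries. Markers of T cells and myeloid cells were low but not absent. The 8 T cell markers summed to 357 to 505 in Prmt5-null and 719 to 819 in control libraries. Most of that was Lck, a kinase of T cell receptor signalling, with 304 to 462 and 660 to 780. Over all libraries Trac had 5.56 to 22.5 and Cd247 had 8.06 to 29.9. Cd3g, Cd8a, Cd4 and Cd3d reached 11.1, 9.34, 5.39 and 3.57, and Cd3e was at 0 in every library. The 7 myeloid markers summed to 37 to 117 in Prmt5-null and 29.6 to 119 in control libraries, mainly Lyz2 (up to 83.3) and Itgam (up to 44.8). Csf1r, Fcgr1 and Cd14 reached 10.7, 4.74 and 2.16, and S100a8 and S100a9 were at 0 in every library. The part of these cells in the mitochondrial values was not tested. Fibroblast markers, which the feeder cells express, were also detected and are given beside the results they touch. Libraries PRMT5-10618 and CTRL-10597, of different genotypes, stood apart from the other 6 in several short mitochondrial tRNAs, as shown further on.

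Sequences of the members that the results turn on are given here from the GENCODE M21 transcripts of GRCm38, 5′ to 3′. Of the tRNAs below, the first 3 are shown because they are contiguous and were all high in the same pair of libraries, and mt-Ts1 because it had reads in Prmt5-null libraries only. The capitals mark the anticodon. The genes mt-Th (histidine, chrM:11546-11612), mt-Ts2 (serine, chrM:11613-11671) and mt-Tl2 (leucine, chrM:11671-11741) follow each other on the plus strand, between mt-Nd4 and mt-Nd5. The other serine tRNA gene, mt-Ts1 (chrM:6870-6938), lies on the minus strand and overlaps the last 3 bases of mt-Co1.
mt-Th: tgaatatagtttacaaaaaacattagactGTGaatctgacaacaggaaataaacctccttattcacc
mt-Ts2: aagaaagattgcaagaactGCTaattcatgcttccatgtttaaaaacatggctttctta
mt-Tl2: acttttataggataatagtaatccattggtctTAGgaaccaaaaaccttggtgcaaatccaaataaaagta
mt-Ts1: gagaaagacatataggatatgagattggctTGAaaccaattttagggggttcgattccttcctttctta

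A stretch of mitochondrial DNA also lies in the nuclear genome, on the minus strand of chromosome 1, and this limits which reads can be assigned. The first 30 bases of mt-Nd3 (chrM:9459-9806), a complex I subunit, and of its nuclear copy Gm28438 (chr1:24612775-24613119) are shown because they hold the only difference between them. It is T3C, counted from the first base of the mitochondrial gene and given as the mitochondrial base, the position and the nuclear base, and the capitals mark it. Over the 345 bases compared, no other base differed.
mt-Nd3: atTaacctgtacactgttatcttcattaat
Gm28438: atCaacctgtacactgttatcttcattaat

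The share of reads that lay on mitochondrial genes did not differ between genotypes beyond the spread of the libraries. In Prmt5-null iGBs the 37 genes together took 0.587% of gene reads in PRMT5-10617, 0.901% in PRMT5-10618, 0.368% in PRMT5-10770 and 0.759% in PRMT5-10771. In control iGBs they took 0.943% in CTRL-10650, 0.665% in CTRL-10370, 0.714% in CTRL-10596 and 0.915% in CTRL-10597. The groups overlapped, with PRMT5-10770 lowest of all 8 libraries and CTRL-10650 highest. The means were 0.654% ± 0.230 (SD, n = 4) in Prmt5-null and 0.809% ± 0.140 (SD, n = 4) in control iGBs, and the exact two-sided permutation test gave p = 0.314 (0.629 after adjustment over the 4 shares compared), where the smallest p that 4 against 4 libraries allow is 0.0286. In bulk RNA, fewer mitochondria per cell, less RNA per mitochondrion and more nuclear-encoded RNA cannot be told apart.

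The mRNAs supplied most of these reads, between 86.6% and 92.3% of the mitochondrial reads of a library. Their share was 0.578% ± 0.206 (SD, n = 4) of gene reads in Prmt5-null and 0.728% ± 0.132 (SD, n = 4) in control iGBs (exact permutation p = 0.257, adjusted 0.629). The 2 rRNAs had shares of 0.0732% ± 0.0239 and 0.0791% ± 0.0175 (SD, n = 4 each, exact permutation p = 0.886). Their level is what the rRNA removal kit left behind, since such kits also target mitochondrial rRNA. The 22 tRNAs had only 470 to 1448 reads per library (exact permutation p = 0.629 for their share), and mature tRNAs are shorter than the RNAs that column purification keeps well.

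**Figure D1:**
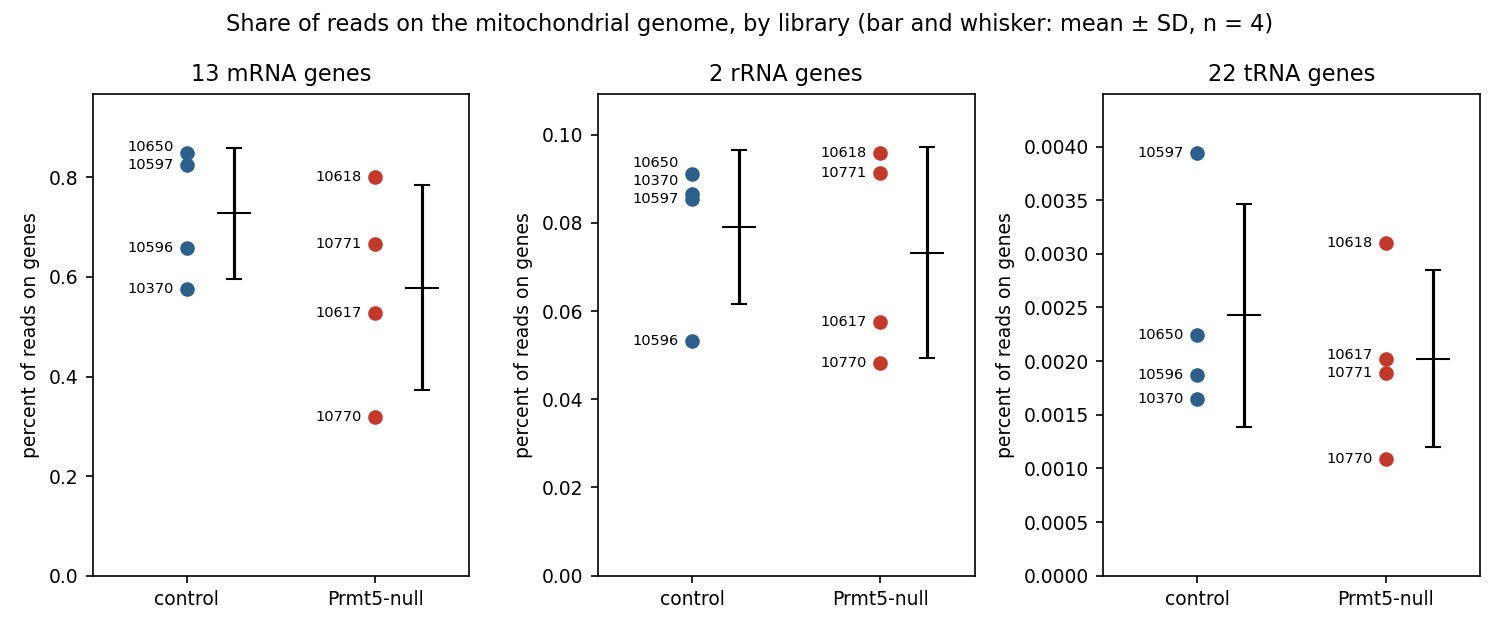
Share of gene reads (percent, vertical axes starting at 0) on the 13 mitochondrial mRNA genes, the 2 rRNA genes and the 22 tRNA genes, with 1 point per library and a bar and whisker for the mean ± SD of 4 libraries. In each panel the Prmt5-null points overlap the control points, and library PRMT5-10770 is the lowest.

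The value of PRMT5-10770 weighed on this comparison. Without it the difference in the share of all mitochondrial genes went from -0.156 to -0.0604 percentage points (exact permutation p = 0.629). The same library was highest in the share of reads on nuclear genes for respiratory chain subunits (1.24% against 0.985% to 1.10% in the other 7) and in that of the abundant small nuclear-encoded RNAs Metazoa_SRP, Rn7sk and Rpph1 (5.37% against 3.19% to 4.12%). Fibroblast markers were higher in Prmt5-null iGBs for 12 of 12 genes tested, and 3 of them (25%) rose with an adjusted p below 0.05 by limma and a change of at least 1.5-fold, against 3.49% of all genes. Their summed normalized count was 13469 in PRMT5-10617, 7862 in PRMT5-10618, 11084 in PRMT5-10770 and 9651 in PRMT5-10771, against 9087 in CTRL-10650, 5271 in CTRL-10370, 6396 in CTRL-10596 and 7611 in CTRL-10597. Mitochondrial transcripts of mouse fibroblasts and of B cells map to the same genes, and the part of feeder cells or of these small RNAs in the mitochondrial shares was not tested.

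Libraries also fell along a second principal component of all genes, with PRMT5-10617, PRMT5-10618, CTRL-10596 and CTRL-10597 on the upper side. Whether that split follows the 2 experiments is not known. On the upper side the mean share of all mitochondrial genes was 0.744% in Prmt5-null and 0.814% in control iGBs, and on the lower side it was 0.564% and 0.804% (2 libraries each). The Prmt5-null mean was the lower in both, and the exact two-sided permutation p was 0.667 on each side, where the smallest that 2 against 2 libraries allow is 0.333. This split was also set as a block in limma's fit over all genes, a choice made after seeing the data. With it 0 of the 32 mitochondrial genes tested were called, against 1209 of all 16250 genes tested. Of the 32, 2 had an unadjusted p below 0.05. Without the block 29.3% of all genes had such a p, and the share with the block is not given here.

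No mitochondrial gene was called between genotypes. A gene was called where limma's test over all genes on log2(normalized count + 1) gave an adjusted p below 0.05 and the change was at least 1.5-fold. Of the 37 genes, 32 were tested, since their normalized count averaged 10 or more over the libraries, and 0 were called, against 6.48% of all 16250 genes tested (3.49% higher and 2.99% lower in Prmt5-null iGBs). At an unadjusted p below 0.05 limma found 1 of the 32, mt-Nd1, against 29.3% of all genes. edgeR and DESeq2 on the recovered reads also called 0 of the 32, against 1091 and 1277 genes over the whole table. Neither gave an unadjusted p below 0.05 for any of the 32. No tested mitochondrial gene had groups that did not overlap, against 19.8% of all genes.

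The signs of the differences were mostly alike. The log2 fold change was below 0, that is, lower in Prmt5-null iGBs, for 28 of the 32 genes (87.5%), against 49.6% of all genes, and the median was -0.35, against 0.00 for all genes. By edgeR and by DESeq2 it was below 0 for 30 of the 32. All 13 mRNAs (median -0.37) and both rRNAs (median -0.19) were below 0, as were 13 of the 17 tRNAs tested (median -0.29). These genes are cut from shared transcripts and counted in the same libraries, so they are not independent observations. The median moved from -0.35 to -0.10 without PRMT5-10770, to -0.16 without CTRL-10597 and to -0.57 without PRMT5-10618, and lay between -0.36 and -0.35 under the 3 other scalings of the libraries (TMM, size factors computed without mitochondrial genes, and library totals).

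**Figure D2:**
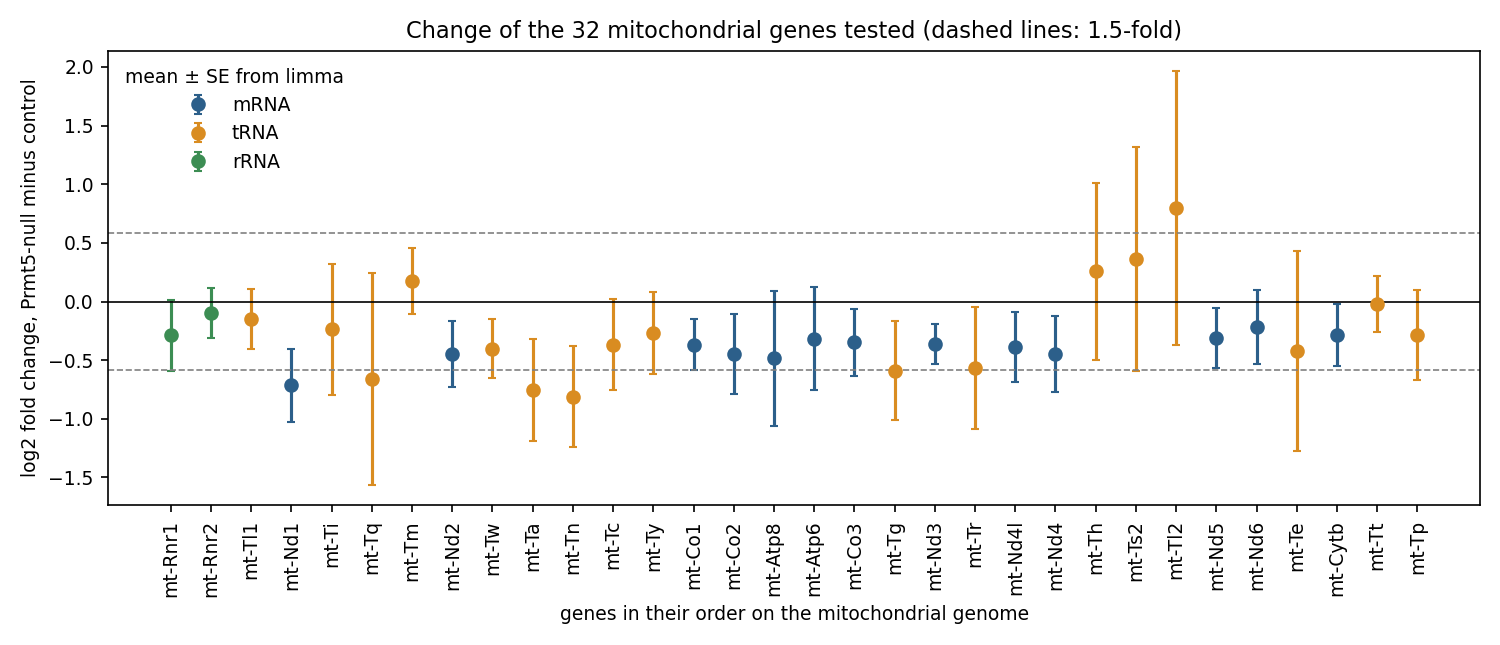
Log2 fold change of the 32 mitochondrial genes tested (Prmt5-null minus control, with bars for the SE from limma), in their order on the mitochondrial genome, with dashed lines at 1.5-fold. Points for 28 genes lie below 0, and the widest bars belong to mt-Tl2, mt-Ts2, mt-Tq, mt-Te and mt-Th.

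Complex I, which takes electrons from NADH, has 7 subunits encoded in mitochondria: mt-Nd1, mt-Nd2, mt-Nd3, mt-Nd4, mt-Nd4l, mt-Nd5 and mt-Nd6. The gene mt-Nd1 (chrM:2751-3707) differed most among all mRNAs. Its normalized count was 12576, 22951, 6503 and 15857 in Prmt5-null libraries PRMT5-10617, PRMT5-10618, PRMT5-10770 and PRMT5-10771, and 25468, 16282, 18043 and 28815 in control libraries CTRL-10650, CTRL-10370, CTRL-10596 and, last, CTRL-10597, an order kept for all genes that follow. All Prmt5-null libraries but PRMT5-10618 lay below every control library, and PRMT5-10618 lay within the control range. The log2 fold change was -0.71 (SE 0.31), with an unadjusted p of 0.041 and an adjusted p of 0.151 by limma. Without PRMT5-10618 it became -0.98 with an adjusted p of 0.0303 and passed the call, and without PRMT5-10770 it became -0.38 with an adjusted p of 0.272.

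The second smallest p of the mRNAs belonged to mt-Nd3. Its normalized count was 6824, 11808, 7589 and 9470 in the Prmt5-null libraries and 11275, 9672, 9966 and 14528 in the control libraries. Again all Prmt5-null libraries but PRMT5-10618 lay below the control libraries. The log2 fold change was -0.36 (SE 0.17, adjusted p = 0.176 by limma). The other subunits of complex I had log2 fold changes of -0.45 (mt-Nd2), -0.45 (mt-Nd4), -0.39 (mt-Nd4l), -0.31 (mt-Nd5) and -0.22 (mt-Nd6), with an adjusted p of up to 0.690 by limma.

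Complex III passes electrons to cytochrome c and has a single subunit encoded in mitochondria, cytochrome b. The normalized count of its gene, mt-Cytb, was 14234, 20791, 7112 and 15090 in the Prmt5-null libraries and 17385, 12294, 15886 and 20640 in the control libraries. The groups overlapped broadly, with PRMT5-10618 highest and PRMT5-10770 lowest of all 8. The log2 fold change was -0.29 (SE 0.26, adjusted p = 0.511 by limma).

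Complex IV, cytochrome c oxidase, reduces oxygen, and mt-Co1 encodes its catalytic subunit. The mt-Co1 gene (chrM:5328-6872) held most mitochondrial reads in every library. Its normalized count was 171786, 249530, 113494 and 220273 in the Prmt5-null libraries and 289170, 195674, 212384 and 247062 in the control libraries. The groups overlapped, with PRMT5-10618 above 3 of the control libraries and PRMT5-10770 far below all others. The log2 fold change was -0.37 (SE 0.22, adjusted p = 0.293 by limma). The other core subunits, mt-Co2 and mt-Co3, had log2 fold changes of -0.45 (SE 0.34) and -0.35 (SE 0.28).

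ATP synthase, which makes ATP from the proton gradient, has the mitochondrial subunits mt-Atp6 and mt-Atp8. These had the most variable mRNAs. The normalized count of mt-Atp8 was 99.1, 495, 62.8 and 289 in the Prmt5-null libraries and 242, 165, 159 and 539 in the control libraries. Libraries PRMT5-10618 and CTRL-10597 were the highest of their genotypes, and the highest was 7.89 times the lowest in Prmt5-null and 3.38 times in control iGBs. The log2 fold changes were -0.48 (SE 0.57) for mt-Atp8 and -0.32 (SE 0.44) for mt-Atp6.

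The rRNAs of the mitochondrial ribosome, 12S from mt-Rnr1 and 16S from mt-Rnr2, also overlapped between genotypes. The normalized count of mt-Rnr2 was 21140, 36203, 19782 and 34815 in the Prmt5-null libraries and 33862, 30409, 20247 and 33111 in the control libraries. In each genotype some libraries lay at 21140 or below and the rest at 30409 or above. The log2 fold change was -0.10 (SE 0.22) for mt-Rnr2 and -0.29 (SE 0.30) for mt-Rnr1, which ranged from 2806 to 5666 in Prmt5-null and from 2929 to 8487 in control iGBs.

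Of the tRNAs, mt-Tn (asparagine) and mt-Ta (alanine), which are neighbours on the minus strand, had the lowest log2 fold changes, -0.81 (SE 0.43) and -0.75 (SE 0.43). The normalized count of mt-Tn was 7.57 to 29.6 in the Prmt5-null libraries and 16.1 to 39.1 in the control libraries. The groups overlapped and the adjusted p was 0.236 by limma. The tRNAs with the most reads, mt-Tl1 (leucine), mt-Tw (tryptophan) and mt-Tt (threonine), had log2 fold changes of -0.15 (SE 0.26), -0.40 (SE 0.25) and -0.02 (SE 0.24). All 8 genes of the minus strand that were tested, 7 tRNAs and mt-Nd6, were below 0 (median -0.39), as were 20 of the 24 on the plus strand (median -0.33). The kit keeps strand, but the strand setting of the counting is not given in the sources used here, so minus-strand reads and reads of the precursor that runs across them on the other strand cannot be told apart.

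The 4 genes above 0 by limma were tRNAs: mt-Tm (methionine) at 0.17 (SE 0.28), mt-Th at 0.26 (SE 0.75), mt-Ts2 at 0.36 (SE 0.95) and mt-Tl2 at 0.80 (SE 1.16). For the last 3 the direction depended on the scale. Their mean normalized counts were lower in Prmt5-null than in control iGBs, at 16 and 18.7 for mt-Th, 11.8 and 18.8 for mt-Ts2 and 20.6 and 32.5 for mt-Tl2, and edgeR and DESeq2 gave log2 fold changes below 0, from -0.67 to -0.17. The large errors of the contiguous mt-Th, mt-Ts2 and mt-Tl2, whose sequences are given above, went with a pair of libraries. The normalized count of mt-Tl2 was 10.2, 57.2, 7.57 and 7.47 in the Prmt5-null libraries and 4.31, 0, 7.17 and 118 in the control libraries. Summed over the 3 tRNAs, PRMT5-10618 had 122 reads and CTRL-10597 had 205 reads, while the other 6 libraries had 12 to 32. These libraries were also the highest in the tRNA genes mt-Tq (glutamine), mt-Te (glutamate) and mt-Tr (arginine).

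The same pair was highest in a nuclear transcript. Gm26870, a long noncoding RNA at chr9:3000282-3038313, had a normalized count of 1351 in PRMT5-10618 and 3468 in CTRL-10597, 313 in PRMT5-10617, 109 in CTRL-10596 and 0 to 4.31 in the remaining libraries. The part of whatever set these libraries apart in the tRNA values was not tested. With both libraries left out, a choice made after seeing the data, 0 of the 32 mitochondrial genes were called, against 997 of all 16250 genes. Of the 32, 5 had an unadjusted p below 0.05 by limma, and their median log2 fold change was -0.42. In limma's fit with all libraries 29.3% of all genes had such a p, and the share without these libraries is not given here.

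**Figure D3:**
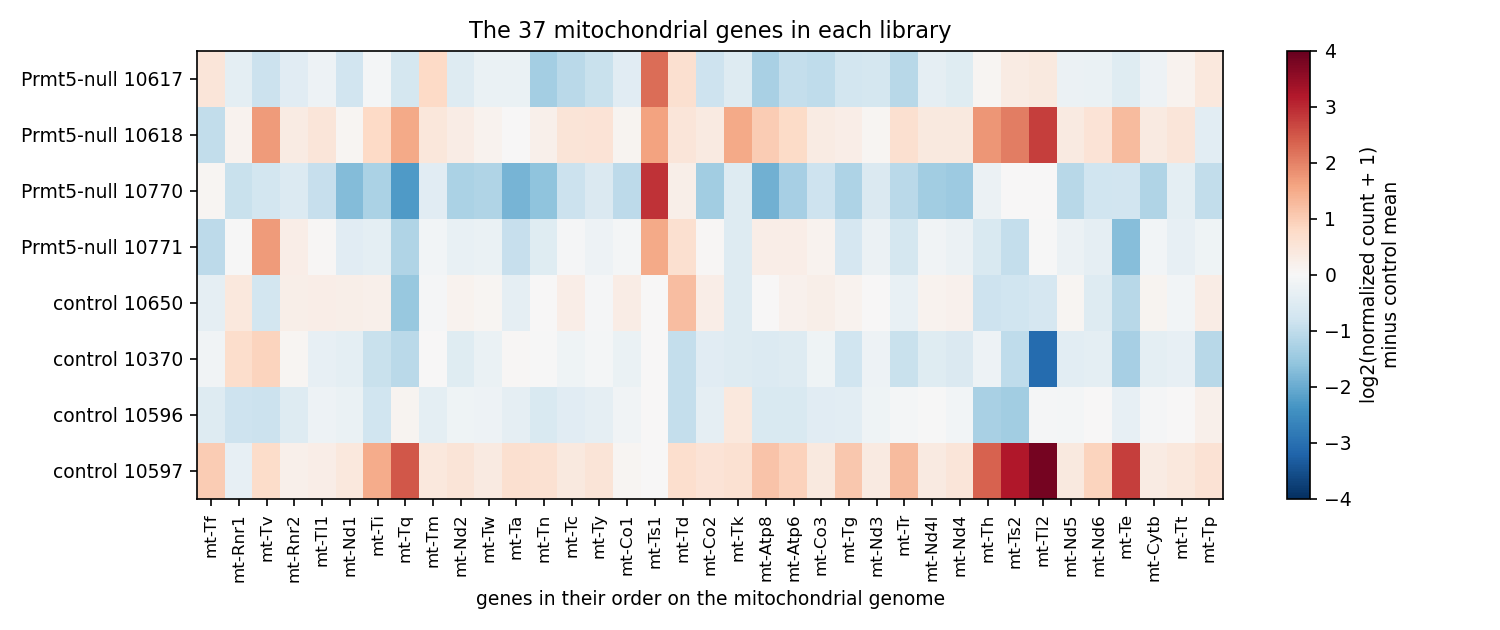
Each of the 37 mitochondrial genes (columns, in genome order) in each library (rows), as log2(normalized count + 1) minus the mean of the 4 control libraries; red is above the control mean and blue below. CTRL-10597 and PRMT5-10618 are red across mt-Th, mt-Ts2 and mt-Tl2, PRMT5-10770 is blue across most genes, and mt-Ts1 is red in all 4 Prmt5-null libraries.

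The genes left out of the test were mt-Tf (phenylalanine), mt-Tv (valine), mt-Ts1 (serine), mt-Td (aspartate) and mt-Tk (lysine), whose normalized counts averaged under 10. Their reads per library were 0 to 11. The mt-Ts1 gene alone had reads in every Prmt5-null library (4, 2, 6 and 2 in PRMT5-10617, PRMT5-10618, PRMT5-10770 and PRMT5-10771) and in no control library. Against a floor of 3 reads over the control group, the reads observed in Prmt5-null iGBs gave a ratio of 4.60-fold. The counting error of the Prmt5-null reads is not in this ratio, so it is not a lower bound. Such a pattern was found in 0.0974% of the 26696 genes with a read, and in 0.809% of the 3089 genes with 7 to 28 reads in all. These are 14 reads in total, and the gene was singled out after its values were seen.

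Ratios within a library, which do not depend on the scaling between libraries, were compared next. The log2 ratio of mitochondrial mRNA reads to reads on 79 nuclear genes for subunits of the respiratory chain and ATP synthase was -1.07, -0.30, -1.96 and -0.64 in the Prmt5-null libraries and -0.31, -0.93, -0.65 and -0.25 in the control libraries. Only PRMT5-10617 and PRMT5-10770 lay below every control library. The difference was -0.46 (SE 0.39, exact permutation p = 0.314), and it was -0.14 without PRMT5-10770.

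The make-up of the mitochondrial mRNA reads did not differ after adjustment for any gene. The share of mt-Co1 was 71.3% to 76.1% in Prmt5-null and 68.8% to 75.9% in control libraries. The share of mt-Nd1 was 5.46% ± 0.90 (SD, n = 4) in Prmt5-null and 6.82% ± 0.82 (SD, n = 4) in control iGBs (exact permutation p = 0.0857, adjusted 1.00 over 15 measures). Since mt-Co1 fills most of the total, shares were also taken of the other mRNAs alone. On that scale mt-Nd1 took 21.5%, 22.9%, 18.3% and 22.5% in the Prmt5-null libraries and 27.8%, 25.7%, 24.1% and 25.7% in the control libraries.

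Here the genotypes did not overlap for mt-Nd1, including library PRMT5-10618. The difference was -4.52 percentage points (SE 1.3), and its exact permutation p of 0.0286 is the smallest that 4 against 4 libraries can give, but it became 0.343 after adjustment over the 12 genes compared. Of the other 11 genes, none had groups that did not overlap. The share of mt-Cytb was 21.6% ± 1.9 in Prmt5-null and 19.5% ± 1.2 in control iGBs (SD, n = 4 each, exact permutation p = 0.0857), and that of mt-Nd5 was 10.6% ± 0.78 and 9.72% ± 0.38 (SD, n = 4 each, exact permutation p = 0.0571). Shares of the 12 genes add up to a fixed total, so a lower mt-Nd1 share raises those of the others together. The log2 fold changes of mt-Cytb and mt-Nd5 themselves were -0.29 and -0.31. The share of mt-Nd3 was 21.3% in PRMT5-10770 and 11.7% to 15.3% in the other 7 libraries.

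Ratios of mt-Nd6 to the other mRNAs and between the rRNAs did not differ beyond their spread. Neither measures a balance in the cells. The strand setting of the counting is unknown, so mt-Nd6 reads may include precursor of the other strand. All rRNA reads here are those left after rRNA removal. The log2 ratio of mt-Nd6, the only mRNA of the minus strand, to the other mRNAs differed by 0.17 (SE 0.34, exact permutation p = 0.629). That of mt-Rnr1 to mt-Rnr2 differed by -0.19 (SE 0.28, exact permutation p = 0.571). Further ratios were added after the data were seen, on the same log2 scale. The ratio of rRNA to mRNA reads differed by 0.25 (exact permutation p = 0.229), tRNA to mRNA reads by 0.12 (exact permutation p = 0.629), and mt-Th, mt-Ts2 and mt-Tl2 to mRNA reads by 0.79 (exact permutation p = 0.514).

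Levels per kilobase of gene spanned more than 100-fold among the 15 mRNAs and rRNAs. In control iGBs mt-Co1 was highest, with 152798 ± 26774 normalized counts per kilobase (SD, n = 4), and in Prmt5-null iGBs it had 122182 ± 38545. Next in control iGBs came mt-Nd3 with 32645 ± 6390, mt-Nd1 with 23148 ± 6233, mt-Rnr2 with 18589 ± 3972 and mt-Cytb with 14468 ± 3027. The lowest were mt-Co2 with 1741 ± 570, mt-Atp8 with 1355 ± 878 and mt-Atp6 with 1026 ± 535. Only mt-Co1 was parted from its neighbour in this order by more than the SDs, and all other neighbours overlapped. In Prmt5-null iGBs mt-Rnr2 (17690 ± 5515) stood above mt-Nd1 (15122 ± 7162), the reverse of the control order, with a difference well inside the SDs. The rRNA levels are those left after rRNA removal, so their place in this order is not their place in the cells.

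These levels can depend on which reads could be placed. The authors counted only reads with a unique place in the genome, and the chromosome 1 copy is close to identical over a run of genes. Of all windows of 100 bases, 99.5% in mt-Co2, 99.5% in mt-Atp6, 99.9% in mt-Co3, 97.6% in mt-Nd3, 98.5% in mt-Nd4l, 60.8% in mt-Nd4 and 30.8% in mt-Co1 were also found in an annotated nuclear transcript. For mt-Nd1, mt-Nd5, mt-Nd6, mt-Cytb and both rRNAs the share was 0. It was 3.19% for mt-Nd2, and 0 for mt-Atp8, which lies inside the copied run but has no annotated copy. Only transcripts were searched, so unannotated copies were not counted. Reads were sequenced in pairs that can span more than a window, so a shared window need not mean a lost read. The part of lost reads in the levels was not tested.

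Of the genes annotated in the copy, Gm10222 matched mt-Nd4l over 294 bases without a difference. It had a normalized count of 6.49 to 24.5 in Prmt5-null and 11.6 to 49.8 in control libraries, with a log2 fold change of -0.63 (SE 0.48, adjusted p = 0.421 by limma). Its count was below that of mt-Nd4l in every library, where the lowest was 1074. Reads that fit both places were not counted, so these counts do not show how the loci compare.

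**Figure D4:**
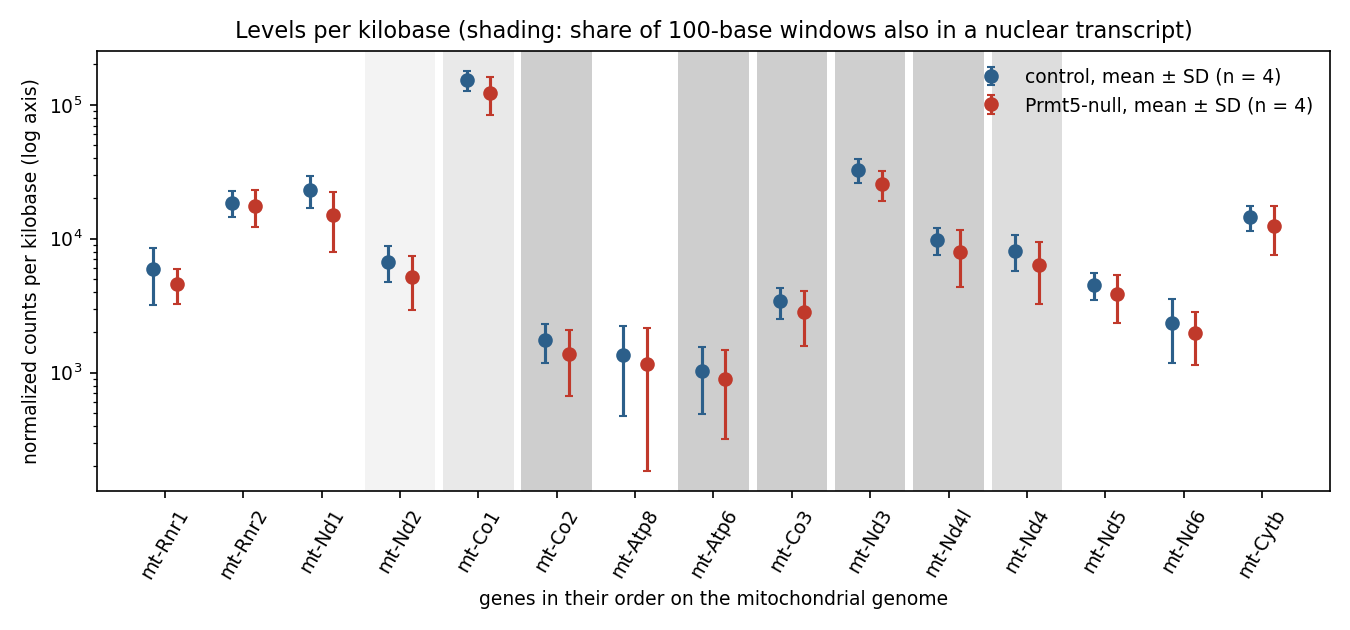
Normalized counts per kilobase (log axis, mean ± SD of 4 libraries) of the 13 mRNA and 2 rRNA genes in genome order, in control and Prmt5-null iGBs. Darker shading marks a larger share of 100-base windows that also occur in a nuclear transcript, from 3.19% in mt-Nd2 to 99.9% in mt-Co3; mt-Co1 stands above all others in both genotypes.

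Nuclear genes that make, process and use mitochondrial RNA were then described by list. Over all genes limma called 6.48%, and 29.3% had an unadjusted p below 0.05. Of 8 genes for mitochondrial transcription, 0 were called by limma, 2 (25%) had an unadjusted p below 0.05 and the median log2 fold change was 0.05. Polrmt, the mitochondrial RNA polymerase, had a normalized count of 1817 ± 164 in Prmt5-null and 1661 ± 109 in control iGBs (SD, n = 4 each, log2 fold change 0.13, SE 0.09). Tfam, which packs mitochondrial DNA and starts its transcription, had 4066 ± 406 and 4336 ± 166 (log2 fold change -0.10, SE 0.08). Chosen after their values were seen, Mterfd2 and Mterfd3, of a family of factors that bind mitochondrial nucleic acids, had log2 fold changes of 0.33 and 0.37 with adjusted p of 0.0288 and 0.0469 by limma, below the 1.5-fold needed for a call.

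Genes for mitochondrial DNA replication and upkeep (18 tested, median -0.08) and for RNA processing, stability and decay (22 tested, median -0.07) had 0 calls by limma, against 6.48% of all genes. An unadjusted p below 0.05 was found for 5 (27.8%) and 3 (13.6%) of them, the former near the 29.3% of all genes and the latter below it. Lrpprc and Slirp, partners that stabilize mitochondrial mRNAs, had log2 fold changes of -0.14 (SE 0.07, adjusted p = 0.181 by limma) and 0.11 (SE 0.13, adjusted p = 0.614 by limma). Regulators of mitochondrial biogenesis (10 tested, median -0.08, 2 or 20% at an unadjusted p below 0.05) and mitochondrial ribosomal proteins (76 tested, median 0.05, 18 or 23.7% at an unadjusted p below 0.05) also had 0 calls by limma, and both shares were below the 29.3% of all genes.

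Of 22 enzymes tested that modify mitochondrial tRNA and rRNA, 3 were called (13.6%, against 6.48% of all genes), 2 lower and 1 higher. Counted by gene identifier these were 4 of 23, since Nsun4 has 2, and the median over the identifiers was 0.03. Nsun4, a methyltransferase of mitochondrial 12S rRNA, fell in Prmt5-null iGBs. Its identifiers may share reads, and their log2 fold changes were -0.91 (SE 0.11) and -0.96 (SE 0.12). The normalized count of the first was 445, 415, 507 and 380 in the Prmt5-null libraries and 786, 909, 805 and 783 in the control libraries, with no overlap (adjusted p = 0.000327 by limma). Trmt2b, a methyltransferase of mitochondrial RNA, fell by 0.62 on the log2 scale (SE 0.11, adjusted p = 0.0028 by limma). Rpusd4, a pseudouridine synthase that acts on mitochondrial 16S rRNA, rose by 0.67 (SE 0.10, adjusted p = 0.00132 by limma), from 1603 ± 75 to 2566 ± 366 normalized counts (SD, n = 4 each).

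Among 12 mitochondrial chaperones and proteases, Htra2 alone was called (8.33%, against 6.48% of all genes). This protease of the space between the membranes fell from 3554 ± 230 in control to 2277 ± 135 in Prmt5-null iGBs (SD, n = 4 each, log2 fold change -0.64, SE 0.08, adjusted p = 0.000327 by limma). The median of the list was -0.02. Of the 79 nuclear subunits of the respiratory chain and ATP synthase, whose median was 0.07 beside -0.37 for the mitochondrial mRNAs, 1 was called (1.27%). It was Cox6a2, the form of a complex IV subunit made in heart and skeletal muscle, with 3.70, 4.08, 6.49 and 31.8 normalized counts in the Prmt5-null libraries and 96.9, 37.4, 41.2 and 24.9 in the control libraries. The groups overlapped, the log2 fold change was -2.36 (SE 0.60, adjusted p = 0.0224 by limma), and the call was lost without PRMT5-10617, without CTRL-10650, without CTRL-10596 and without the trend in limma.

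**Figure D5:**
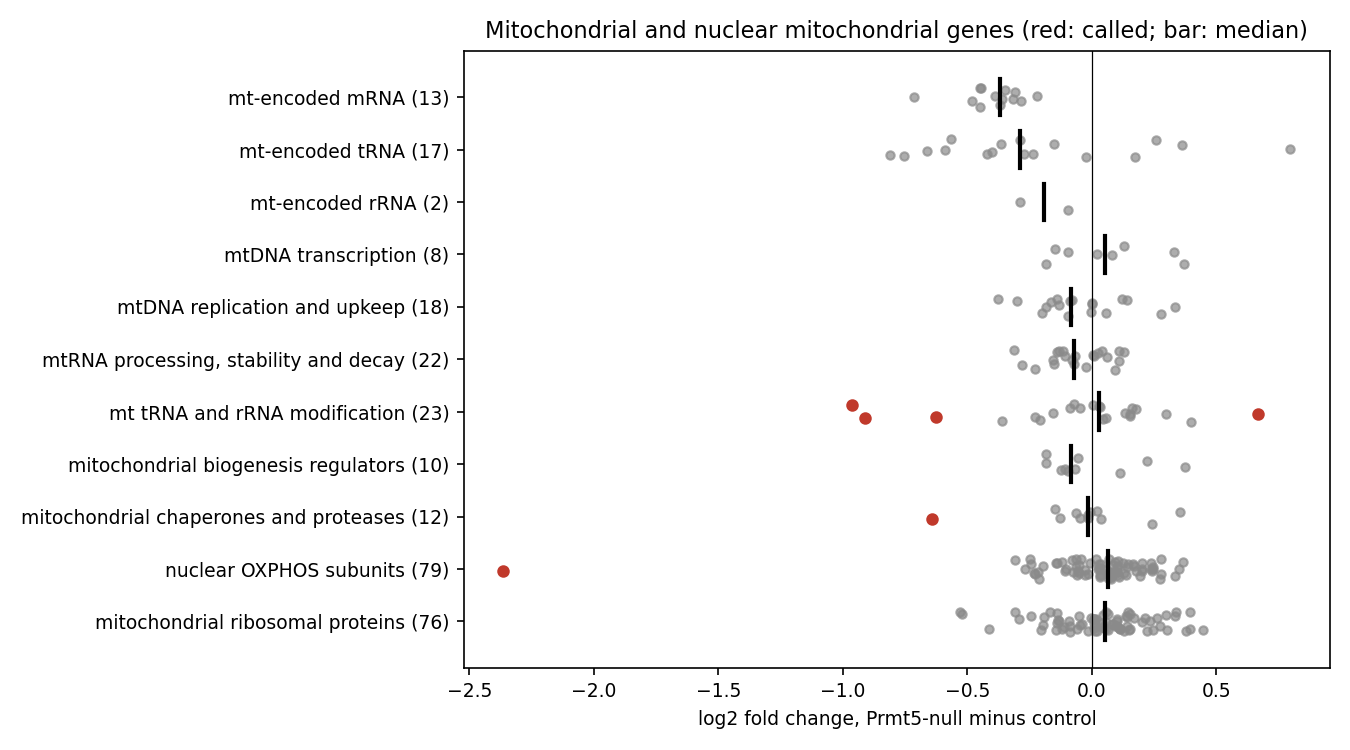
Log2 fold change (Prmt5-null minus control) of each gene tested in the mitochondrially encoded classes and in 8 lists of nuclear genes, with the number of gene identifiers in brackets, a bar at the median and red for called genes. The medians of the 3 mitochondrially encoded classes are -0.37, -0.29 and -0.19, and those of the nuclear lists lie between -0.08 and 0.07.

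Of the B cell markers 11 gene identifiers were tested and 1 (9.09%) was called, against 6.48% of all genes. It was Cd79a, a part of the B cell receptor, which fell by 0.74 on the log2 scale. Groups did not overlap for 3 of the 11, against 19.8% of all genes. These were Cd79a, Cd74 (log2 fold change -0.23) and 1 identifier of Ebf1 (-0.52). Of the fibroblast markers, the collagen genes Col3a1 and Col1a2 and the matrix gene Sparc were called and rose by 1.02, 0.72 and 0.83, and the median over 12 genes was 0.74. Of the T cell markers 3 were tested and 1 (33.3%) was called, against 6.48% of all genes. Lck fell by 0.94, while Trac, at a log2 fold change of -0.83, and Cd247, at 0.69, were not called. Of the myeloid markers 2 were tested and limma called 0, with 0 at an unadjusted p below 0.05. Of 3 genes listed as a sign of rRNA left after removal, Gm26917 and AY036118 had log2 fold changes of 0.04 and -0.01. The third, Gm26870, is described above, and whether it reflects rRNA was not tested.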

How the data were processed

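RNA-seq of iGBs was used in 4 Prmt5-null and 4 control libraries. Per the paper's methods and the submitters' notes, the authors removed rRNA with a Ribo-Zero Gold kit, trimmed reads with Trimmomatic 0.32, aligned them to mm10 (GRCm38) with STAR 2.3.0e and counted uniquely mapped reads on Ensembl exons with featureCounts 1.4.4. The deposited signal is each count divided by a DESeq2 1.14.1 size factor. All values were whole multiples of 1 read of their library within 0.01 (100% in each), so reads were recovered. The deposited rMATS columns hold the authors' own comparisons and were not used; mitochondrial mRNAs have no introns.

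Members were found by symbol, and any could be named. The other genes named were Prmt5, Polrmt, Tfam, Lrpprc, Slirp, markers, genes of the chromosome 1 copy and at most the 5 largest changes among called genes of a list. Outside this rule, Mterfd2, Mterfd3, Metazoa_SRP, Rn7sk, Rpph1, Gm26870, Gm26917 and AY036118 were named after their values were seen. The members and the 14 lists were chosen with earlier results of these data known. limma 3.58.1 (eBayes with a trend, R 4.3.3) was run on genes averaging 10 or more on log2(normalized count + 1), which understates changes of low genes, with Benjamini-Hochberg adjustment over 16250 genes. Single measures were compared by exact permutation. The fit was tested on simulated data. edgeR 4.0.16 and DESeq2 1.42.0 on recovered reads, other pseudocounts, filters and scalings, each library left out and the 2 experiments as a block in all 18 placements were alternatives. Shares and figures used Python 3.11.15, pandas 2.3.3, NumPy 2.4.6, SciPy 1.17.1 and matplotlib 3.10.9. Positions and sequences came from GENCODE M21 (GRCm38). The floor of 3 reads covers counting error of the control group only.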

Additional observations from a re-analysis of the deposited data

Results flagged for a closer look

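A library was set apart where its gap to the nearest library of its genotype, over the range of the 4, passed Dixon's 95% critical value. Of 110 groups of 4 libraries examined, 14 did so, and chance alone sets apart about 1 in 20. Library PRMT5-10618 was far above the other Prmt5-null libraries in the normalized counts of mt-Tq (41.9), mt-Tr (27.6), mt-Th (37.8) and mt-Tl2 (57.2). Library CTRL-10597 was far above the other controls in those of mt-Tq (82.9), mt-Th (56.9), mt-Ts2 (67.5), mt-Tl2 (118) and mt-Te (124). It was also set apart in the share of mt-Atp8 in mitochondrial mRNA reads (0.150%), in the log2 ratio of tRNA to mRNA reads (-7.71) and in that of mt-Th, mt-Ts2 and mt-Tl2 to mRNA reads (-10.53). Library CTRL-10596 had the lowest share of rRNA reads among controls (0.0532% of gene reads). Library PRMT5-10617 had the lowest share of mt-Co3 in mitochondrial mRNA reads of its genotype (0.557%). Most of these measures share the reads of 2 libraries, so they are not separate events.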

How the results depend on the processing

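The cause was not tested for any change below, apart from those that the alternative's own construction gives. Over all genes, 2249 were called at any fold, 637 at an adjusted p below 0.01, and 795 to 1173 with each library left out. Mitochondrial genes called were 0 to 1 with each library left out (mt-Nd1 without PRMT5-10618), 1 with no filter on low values (mt-Ts1, log2 fold change 2.07, adjusted p = 0.0119, against controls at 0), at most 1 with the experiment as a block (mt-Nd1 in 1 of 18 placements, adjusted p = 0.0281) and 0 otherwise. At any fold, calls were 2 of 8 for mitochondrial transcription, 2 of 18 for replication and 2 of 22 for RNA processing. They were 3 of 79 for nuclear respiratory subunits and 6 of 76 for ribosomal proteins, against 13.8% of all genes. Nuclear respiratory subunits called were 0 with a mean above 50, 0 without limma's trend, 0 at an adjusted p below 0.01 and 0 to 1 with each library left out, and ribosomal proteins 0 to 1 (1 without PRMT5-10770). The median over mitochondrial genes was -0.57 to -0.10 with each library left out. Signs turned in some fits, always far from the threshold. By edgeR and DESeq2 the log2 fold changes were -0.17 and -0.21 for mt-Th, -0.60 and -0.67 for mt-Ts2, -0.61 and -0.65 for mt-Tl2, and 0.0047 and 0.0054 for mt-Tt. With each library left out they were -0.68 to 0.020 (mt-Atp6), -0.50 to 0.017 (mt-Cytb), -0.48 to 0.083 (mt-Nd6), -0.27 to 0.051 (mt-Rnr2), -0.98 to 0.50 (mt-Te), -0.25 to 1.04 (mt-Th), -0.58 to 0.26 (mt-Ti), -0.36 to 0.10 (mt-Tl1), -0.23 to 2.07 (mt-Tl2), -0.033 to 0.38 (mt-Tm), -1.38 to 0.16 (mt-Tq), -0.20 to 1.43 (mt-Ts2) and -0.19 to 0.12 (mt-Tt). Likewise the differences were -0.093 to 0.41 for mt-Nd6 to other mRNA, -0.37 to 0.021 for mt-Rnr1 to mt-Rnr2, and in percentage points -0.68 to 1.96 for the share of mt-Co1, -0.353 to 0.355 for that of mt-Nd3, -0.0145 to 0.00249 for rRNA and -0.000761 to 0.000103 for tRNA. Without mt-Co1 the difference in the share of mt-Nd1 was -4.52 points. No paired analysis was possible because the genotypes share no replicate numbers. Of 692 refits of single mitochondrial genes, 661 kept direction and call. In the refits with a block and in limma without the trend, the log2 fold change is fixed by construction, so only the call could change. Depth limits the tRNAs most, where 5 of 22 were too low to test.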
